A study of Homo sapiens with 6 samples.

Results

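The interleukin 1 family comprises secreted or nuclear cytokines that start inflammatory signalling, and the genes described here are 10 of its central components in MDA-MB-231 cells, a human triple-negative breast cancer (TNBC) line with a mesenchymal phenotype. They are the ligand genes IL1A, IL1B, IL1RN, IL33 and IL18, the receptor chain genes IL1R1 and IL1RAP, and the signalling genes MYD88, IRAK1 and IRAK2. They were taken by symbol from the 74852 genes listed. Each had 1 entry, so that no choice between entries by mean level was needed. The genes were chosen by family membership and with their normalized counts in these same si-CTRL and si-NEK2 libraries known. Their differences between groups are therefore given as levels and fold changes with standard errors (SE), without a test, and calls among them are only counted. Cells were transfected in 2 rounds with a pool of non-targeting siRNAs (si-CTRL) or of siRNAs against the kinase NEK2 (si-NEK2), with 3 libraries per group. The sample records place the harvest 24 h after the second round, whereas the methods of the study give another interval. No animal, donor or further treatment entered the design. A single cell line and 1 pool per group were used, so that NEK2 loss and off-target action of its siRNA pool cannot be told apart.

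As background, IL1A and IL1B encode interleukin 1 alpha and beta, which bind the receptor chain encoded by IL1R1, and the product of IL1RAP then joins as the shared co-receptor. The adaptor MYD88 is recruited to the cytoplasmic part of this complex and assembles the kinases IRAK4, IRAK1 and IRAK2, from which the signal passes to TRAF6, NF-kB and MAP kinases. IL1RN encodes a receptor antagonist that occupies IL1R1 without signalling. IL33 and IL18 encode cytokines with primary receptors of their own and the same use of MYD88. IL1B and IL18 are made as precursors that caspase-1 cleaves inside inflammasomes, and many tumour cells produce interleukin 1 as an autocrine and paracrine signal.

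The 6 libraries held between 52625492 and 87454509 reads assigned to genes. The silenced gene, NEK2, had between 3290 and 3702 normalized counts in the si-CTRL libraries and between 284 and 388 in the si-NEK2 libraries, so that 10.0% of its mean remained. Of the markers of the line, VIM, CD44 and AXL were abundant, whereas PGR, ESR1, EPCAM and CDH1 did not reach a mean of 10 normalized counts. The abundant 3 had log2 fold changes of -0.18, -0.76 and -0.20 in this order, of which CD44 was regulated (-0.58 and no longer regulated without si-CTRL replicate 1), and the part of this in the results below was not tested. The si-CTRL replicate 1 library stood apart from the other si-CTRL libraries, with a chi-square per gene of 77.1 and 81.4 against them in place of 12.8 between the other two. Values without this library are therefore given for the tested members and for some of the other genes named below. Nothing in the records says that the 3 libraries of a group came from separate cultures, whereas the methods speak of triplicates, and p-values measure the spread between these libraries. As the RNA came from bulk cells, fewer expressing cells and less RNA per cell cannot be told apart.

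To show the DNA in front of the genes with the lowest fitted changes among the well-counted members, the 250 bases before the annotated start are printed for IL1A, IL1B and MYD88, from RefSeq promoters (GRCh38.p14). The series files use hg19, and these windows were matched by symbol. Capitals mark the letters TGANTCA of an AP-1 motif, the letters GAAA, any 2 bases and GAAA again of an interferon-type element and the letters TATAAA.

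IL1A (chr2:112784494-112784743, minus strand): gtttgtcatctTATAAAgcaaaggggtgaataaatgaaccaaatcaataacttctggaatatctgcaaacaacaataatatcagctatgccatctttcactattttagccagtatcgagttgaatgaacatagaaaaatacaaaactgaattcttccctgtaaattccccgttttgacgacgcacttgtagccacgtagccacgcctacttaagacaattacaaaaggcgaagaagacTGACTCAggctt

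IL1B (chr2:112836780-112837029, minus strand): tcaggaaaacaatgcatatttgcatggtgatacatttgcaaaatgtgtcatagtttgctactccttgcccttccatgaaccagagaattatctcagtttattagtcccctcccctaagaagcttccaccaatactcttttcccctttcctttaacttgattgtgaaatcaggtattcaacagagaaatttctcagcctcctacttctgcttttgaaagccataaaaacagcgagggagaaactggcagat

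MYD88 (chr3:38138411-38138660, plus strand): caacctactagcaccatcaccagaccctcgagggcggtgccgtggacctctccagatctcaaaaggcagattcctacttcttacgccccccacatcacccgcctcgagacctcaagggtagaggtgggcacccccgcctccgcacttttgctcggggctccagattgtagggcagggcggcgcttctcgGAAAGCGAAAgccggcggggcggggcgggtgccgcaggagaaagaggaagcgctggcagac

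A window of 300 bases, of which 50 follow the start, was at hand for 9 of the 10 genes, with 16 windows in all because some genes have several starts. IL18 had none. On either strand, TGANTCA, which reads as the same motif on both strands, was found in windows of IL1A, IL1RN and IRAK1 and in 7.71% of all 35116 windows. In IL1A it lay from -12 to -6 relative to the start printed here and again from 38 to 44 beyond it. The interferon-type element was found in MYD88, from -61 to -52, in IL1RN, and in 3.57% of all windows. TATAAA was found in windows of IL1A, IL1R1 and IL1RN and in 11.5% of all windows, and the kB consensus, the binding motif of NF-kB, in IRAK1 and in 11.3%. None of these letters occurred in the printed window of IL1B. These matches describe the letters of short windows and nothing of what binds there.

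The comparison of si-NEK2 with si-CTRL cells asked which genes depend on NEK2 expression in TNBC cells. Both interleukin 1 ligand genes fell in si-NEK2 cells, with 10.4% of IL1A and 8.56% of IL1B remaining, and so did the adaptor MYD88 (30.7%), the kinases IRAK1 (49.5%) and IRAK2 (55.0%) and the receptor IL1R1 (65.1%). IL33, a ligand with few reads, also fell. IL18 was the 1 member that rose, to 3.39 times its si-CTRL mean. IL1RAP remained at 85.5% and did not pass the fold change threshold, and IL1RN was listed at 0 or near 0 in all libraries.

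Following the thresholds of the study, genes were called regulated when limma on log2(normalized count + 1) gave p up to 0.05 and they differed 1.5-fold or more. Adjusted p-values of other genes are Benjamini-Hochberg values over all genes tested. All log2 fold changes here are on that scale, on which differences of low-count genes come out too small. Of the 10 members, 9 had the mean of at least 10 normalized counts needed for testing. Of these, 7 were regulated downward and 1 upward, where 14.3% of the 18717 genes tested were regulated downward, 8.23% upward and 22.5% in either direction. The groups did not overlap for any of the 9 tested members, which held for 55.0% of all tested genes (26.9% lower and 28.2% higher in si-NEK2). By adjusted p up to 0.05 alone, 8 of the 9 were lower and 1 higher, where 43.1% of all tested genes were called, 21.3% lower and 21.8% higher. A decrease of 2-fold or more was seen in 5 members (6.59% of all tested genes) and one of 8-fold or more in IL1A and IL1B (0.187%). IRAK1 passed 2-fold only narrowly, with -1.02, and its weakest value with a library left out was -0.98, inside that limit. IL33 passed the filter only through si-CTRL and is no support. It is among the 7 regulated downward, the 9 without overlap, the 8 lower by adjusted p and the 5 lower by 2-fold or more. Its fitted value also passed 8-fold, but not under every alternative. The median log2 fold change was -1.02 over the tested members, IL33 included, and 0.01 over all genes tested. Members were chosen with earlier results of these data known, so that these counts describe the members and are no independent evidence.

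**Figure D1:**
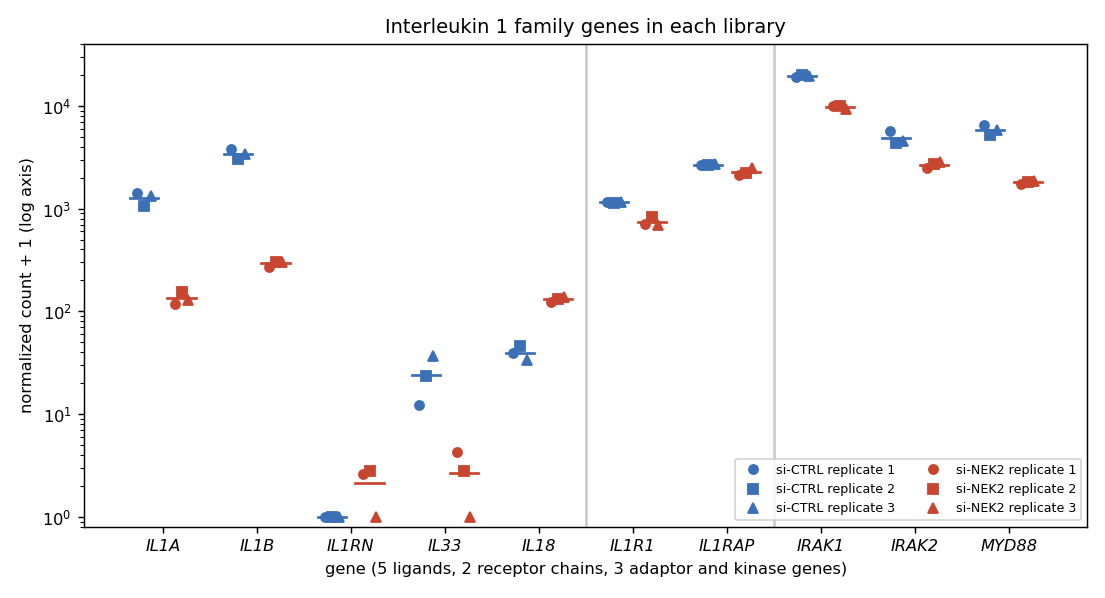
Normalized count + 1 of each of the 10 genes on a log axis, with 1 symbol per library (blue si-CTRL, red si-NEK2) and a bar at the mean of 3 libraries. IL1A and IL1B lie between 1047 and 3773 in si-CTRL and between 117 and 303 in si-NEK2, IL18 is the gene whose red symbols lie above the blue ones, and IL1RN is at or near 0 throughout.

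Among the ligands, IL1B (GSHG0017932, chromosome 2 from 113587332 to 113594357, hg19) had 3773, 3031 and 3413 normalized counts in si-CTRL replicates 1 to 3 and 272, 300 and 303 in si-NEK2 replicates 1 to 3. Every si-NEK2 library was thus below every si-CTRL library, and the si-NEK2 libraries lay close together. The mean fell from 3406 ± 371 to 291.6 ± 17.3 (SD, n = 3), or 11.7-fold, and the log2 fold change was -3.54 (SE 0.10). Of the 18717 genes tested, 16 had a lower log2 fold change, so that IL1B ranked 17.

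IL1A (GSHG0017931, chromosome 2 from 113531493 to 113542975, hg19), whose product is active as a precursor and can act from the cell surface or the nucleus, had 1429, 1047 and 1339 normalized counts in si-CTRL replicates 1 to 3 and 117, 154 and 127 in si-NEK2 replicates 1 to 3. The groups were far apart here too. Its mean fell from 1272 ± 200 to 132.5 ± 18.9 (SD, n = 3), with a log2 fold change of -3.25 (SE 0.15) and rank 25 from the lowest. Without si-CTRL replicate 1 the log2 fold changes were -3.46 for IL1B and -3.16 for IL1A.

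IL33 (GSHG0030011, chromosome 9 from 6215149 to 6257982, hg19), an alarmin held in the nucleus until cell damage, was far less abundant. It had 11.2, 22.3 and 36.1 normalized counts in si-CTRL replicates 1 to 3 and 3.27, 1.81 and 0 in si-NEK2 replicates 1 to 3. These correspond to 70 reads in the si-CTRL and 6 reads in the si-NEK2 libraries, and 7.57% of the level remained by reads (exact 95% interval from 2.69% to 17.3%, for counting error only). The log2 fold change was -3.26 (SE 0.66), but it moved from -4.60 with a pseudocount of 0.1 to -2.01 with one of 5, and was -3.68 without si-CTRL replicate 1. IL33 reached the minimum mean only through the si-CTRL libraries, so that a gene that passed in this way had to differ, and its size is uncertain.

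IL18 (GSHG0118915, chromosome 11 from 112013976 to 112034840, hg19), which encodes an inducer of interferon gamma, went the other way. Its normalized counts were 38.7, 44.6 and 32.3 in si-CTRL replicates 1 to 3 and 123, 131 and 138 in si-NEK2 replicates 1 to 3. All si-NEK2 libraries were above all si-CTRL libraries, and the spread within each group was small beside the difference. The mean rose from 38.54 ± 6.12 to 130.5 ± 7.46 (SD, n = 3), with a log2 fold change of 1.74 (SE 0.18), and 106 of the 18717 genes tested had a higher value. It was 1.75 without si-CTRL replicate 1.

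IL1RN (GSHG0016793, chromosome 2 from 113856937 to 113891597, hg19), the antagonist gene, had 0 reads in the 3 si-CTRL libraries and 2, 2 and 0 reads in si-NEK2 replicates 1 to 3. A count of 0 allows up to 3 reads, which is between 2.46 and 3.75 normalized counts depending on the library, so that both groups were at or under this limit and a difference was not detectable at this depth.

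Of the receptor chains, IL1R1 (GSHG0016724, chromosome 2 from 102686836 to 102805047, hg19) had 1152, 1133 and 1157 normalized counts in si-CTRL replicates 1 to 3 and 710, 831 and 699 in si-NEK2 replicates 1 to 3. The si-CTRL libraries were nearly identical and all si-NEK2 libraries were lower. The mean fell from 1147 ± 12.6 to 746.6 ± 72.9 (SD, n = 3), with a log2 fold change of -0.62 (SE 0.09). This is close to the threshold, and IL1R1 was no longer regulated without si-NEK2 replicate 3 or with quantile normalization, with -0.58 in both. Its entry overlaps that of IL1RL2 at one end, which had 24.1 ± 9.46 and 20.4 ± 5.92 normalized counts (SD, n = 3) in si-CTRL and si-NEK2 cells.

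IL1RAP (GSHG0021425, chromosome 3 from 190231840 to 190374985, hg19), the co-receptor shared by the interleukin 1, interleukin 33 and interleukin 36 receptors, had 2628, 2629 and 2741 normalized counts in si-CTRL replicates 1 to 3 and 2103, 2244 and 2493 in si-NEK2 replicates 1 to 3. The groups did not overlap, but the difference was small. The log2 fold change was -0.23 (SE 0.08). IL1RAP thus lay within the 1.5-fold limit.

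Among the signalling genes, MYD88 (GSHG0020700, chromosome 3 from 38179969 to 38184510, hg19) had 6507, 5240 and 5771 normalized counts in si-CTRL replicates 1 to 3 and 1724, 1805 and 1856 in si-NEK2 replicates 1 to 3. The lowest si-CTRL library was thus well above the highest si-NEK2 library. The mean fell from 5839 ± 636 to 1795 ± 66.6 (SD, n = 3), a log2 fold change of -1.70 (SE 0.09). Only 1.73% of the genes tested had a lower value.

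IRAK1 (GSHG0032425, chromosome X from 153275957 to 153285342, hg19), the kinase that leaves the receptor complex to engage TRAF6, was the member with most reads. Its normalized counts were 19279, 19940 and 19628 in si-CTRL replicates 1 to 3 and 9965, 9884 and 9267 in si-NEK2 replicates 1 to 3. Both groups were tight and far apart. The log2 fold change was -1.02 (SE 0.06), with 6.60% of the genes tested lower.

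IRAK2 (GSHG0020579, chromosome 3 from 10206563 to 10285427, hg19), a relative needed for the late phase of the response, had 5739, 4320 and 4502 normalized counts in si-CTRL replicates 1 to 3 and 2471, 2706 and 2827 in si-NEK2 replicates 1 to 3. The si-CTRL replicate 1 library was the highest and no libraries overlapped between groups. The mean fell from 4854 ± 772 to 2668 ± 181 (SD, n = 3), a log2 fold change of -0.85 (SE 0.11), which was -0.73 without si-CTRL replicate 1. Without this library the values of MYD88, IRAK1, IL1R1 and IL1RAP were -1.62, -1.03, -0.62 and -0.24, and 8 members were regulated as before. Of the 9 tested members, 4 were highest in si-CTRL replicate 1 among the si-CTRL libraries, namely IL1A, IL1B, IRAK2 and MYD88.

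**Figure D2:**
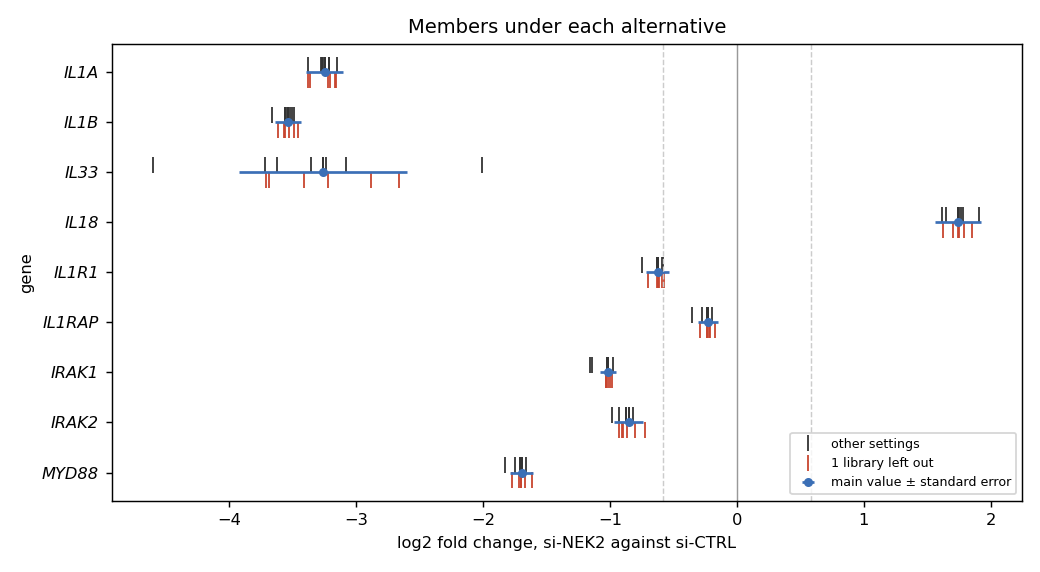
Log2 fold change of the 9 tested members with its standard error (blue), with each library left out in turn (red ticks) and under the other alternatives (black ticks), with dashed lines at a fold change of 1.5. IL1A, IL1B, MYD88, IRAK1, IRAK2 and IL18 stay outside the dashed lines in every case, IL1R1 touches the line, IL1RAP lies inside it, and IL33 spreads from -4.60 to -2.01.

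Levels of different genes were compared per kb of the longest annotated transcript (GENCODE 29, matched by symbol). In si-CTRL cells IRAK1 led with 5351 ± 90.3 normalized counts per kb (SD, n = 3), followed by IL1B (2088 ± 228), MYD88 (1762 ± 192) and IRAK2 (1394 ± 222), where the libraries of IL1B and MYD88 and those of MYD88 and IRAK2 overlapped. IL1A (598.7 ± 94.0) and IL1RAP (492.5 ± 12.0) also overlapped, and IL1R1 (223.1 ± 2.45), IL18 (22.7 ± 3.61) and IL33 (8.79 ± 4.72) followed without overlap. The ligand IL1B was thus among the most abundant transcripts of the set per length.

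In si-NEK2 cells IRAK1 still led (2647 ± 104 normalized counts per kb), now before IRAK2 (766 ± 52.1), MYD88 (541.7 ± 20.1) and IL1RAP (421.2 ± 36.5). IL1B came to rank 5 with 178.8 ± 10.6 normalized counts per kb, and IL18 (76.9 ± 4.39) stood just before IL1A (62.4 ± 8.91), the lowest IL18 library being level with the highest IL1A library at 72.3. With the union of all exons as the length, IL1B came after MYD88 and IRAK2 in si-CTRL cells with 1100 ± 120 normalized counts per kb and after IL1R1 in si-NEK2 cells with 94.2 ± 5.58, and IL18 (49.6 ± 2.84) came after IL1A, so that these places in the order depend on the length used.

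**Figure D3:**
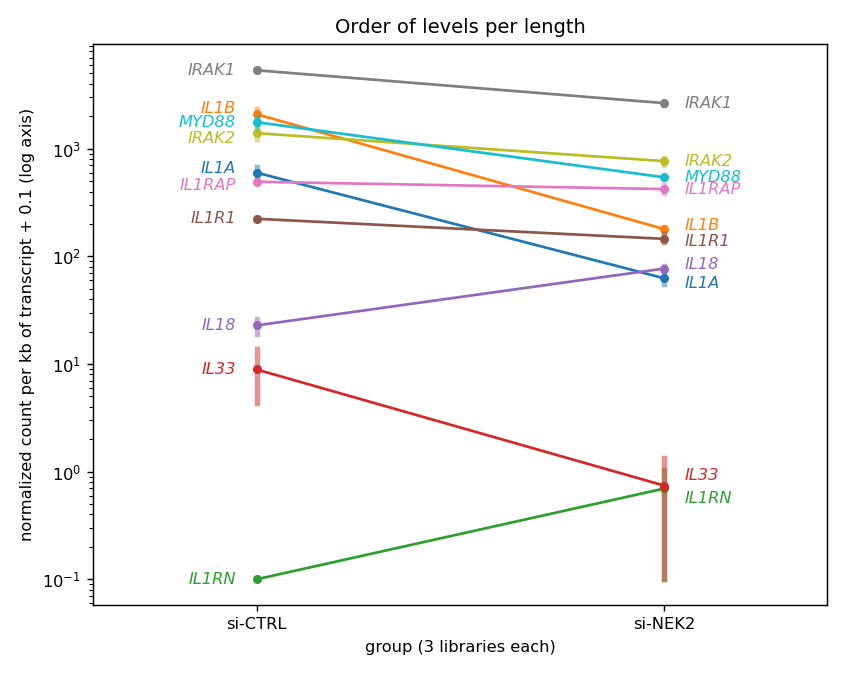
Mean normalized count per kb of the longest transcript + 0.1 on a log axis for the 10 genes in si-CTRL and si-NEK2 cells, with thick bars from the lowest to the highest of 3 libraries. IL1B and IL1A cross several other genes on the way down, IL18 rises from 22.7 to 76.9, and IRAK1 stays at the top.

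Ratios between members within a library, chosen after their values were seen, do not depend on the scaling of libraries. The ratio of IL1A to IL1B per kb was 0.291, 0.265 and 0.301 in si-CTRL replicates 1 to 3 and 0.331, 0.393 and 0.322 in si-NEK2 replicates 1 to 3, so that every si-NEK2 library lay above every si-CTRL library. The ratio of IL18 to IL1B moved from 0.011 ± 0.0027 to 0.43 ± 0.00910 (SD, n = 3). MYD88 exceeded IRAK2 in si-CTRL cells with a ratio of 1.27 ± 0.0779 and was below it in si-NEK2 cells with 0.708 ± 0.0226, and the ratio of MYD88 to IRAK1 moved from 0.33 ± 0.0415 to 0.205 ± 0.0153. The receptor ratio, IL1R1 to IL1RAP, was 0.453 ± 0.00859 and 0.347 ± 0.0479. For these 5 ratios the groups did not overlap, which is given as a description. The ratio of IRAK2 to IRAK1, at 0.261 ± 0.0459 and 0.29 ± 0.0301, overlapped between groups.

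Other ligand genes of the family had low counts in these cells. Of IL36A, IL36B, IL36G, IL36RN, IL37 and IL1F10, only IL37 reached the mean needed for testing, and the highest of the others was IL36G with 8.58 ± 1.09 normalized counts (SD, n = 3) in si-CTRL and 9.41 ± 2.98 in si-NEK2 cells. IL37, an anti-inflammatory cytokine of the family, fell from 41.1 ± 8.78 to 18.9 ± 4.75 normalized counts (SD, n = 3), with a log2 fold change of -1.08 (SE 0.28, limma adjusted p = 0.0132).

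Among the other receptors and decoys, 1 of 6 tested entries was regulated (16.7%, beside 22.5% of all genes tested), with a list median log2 fold change of -0.05. It was the entry shared by IL1RL1, the interleukin 33 receptor, and IL18R1, the interleukin 18 receptor, whose reads the file does not part. This entry fell from 187.1 ± 15.5 to 92.1 ± 22.4 normalized counts (SD, n = 3), a log2 fold change of -1.04 (SE 0.20, limma adjusted p = 0.00304). SIGIRR, an inhibitory receptor, had 314.5 ± 67.8 and 344.9 ± 84.4 normalized counts (limma adjusted p = 0.654). The decoy receptor IL1R2 and the second interleukin 18 receptor chain IL18RAP did not reach the mean needed for testing, with at most 0.995 normalized counts on average over the 6 libraries.

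Of 26 tested genes of the cascade below the receptor, 4 were regulated downward and 2 upward, with a median log2 fold change of 0.15. This is 23.1% of them, close to the 22.5% of all genes tested, so that the count is no result about the cascade. The largest change was that of MAP2K6, a kinase that activates p38, which rose from 31.3 ± 8.19 to 145.5 ± 11.0 normalized counts (SD, n = 3), with a log2 fold change of 2.21 (SE 0.21, limma adjusted p = 9.1e-05). MAP3K8, a kinase upstream of ERK, also rose, by 0.74 (SE 0.16, limma adjusted p = 0.00576). PELI1, a ubiquitin ligase that acts on IRAK1, fell with a log2 fold change of -0.90 (SE 0.11, limma adjusted p = 0.000331), and IRAK4, the first kinase to join MYD88, with -0.65 (SE 0.13, limma adjusted p = 0.00414). IRAK4 was no longer regulated without si-CTRL replicate 3 (-0.58) or si-NEK2 replicate 2 (-0.54). Its weakest value, -0.52, came from an alternative that kept all libraries and also lay inside the limit. The 2 further genes regulated downward, MAPK14, which encodes p38 alpha, and SQSTM1, a scaffold with the highest count but one in the list, had values close to the threshold (-0.61 and -0.60), which MAPK14 missed without si-NEK2 replicate 1 (-0.55) or si-CTRL replicate 2, and SQSTM1 was not regulated without si-CTRL replicate 1 (-0.53). The entry with the highest count, shared by UBE2V1 and TMEM189, had a log2 fold change of 0.28 (limma adjusted p = 0.092), which was 0.45 (adjusted p = 3.32e-05) without si-CTRL replicate 1.

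The regulated genes of cytokine maturation and release were all lower in si-NEK2 cells. Of 15 tested, 5 were regulated downward and none upward (33.3%, beside 14.3% of all genes tested lower and 22.5% in either direction). At an adjusted p-value of at most 0.05 in limma 8 were lower and 0 higher, beside 21.3% and 21.8% of all genes tested. At an unadjusted one, whose share over all genes is not given here, 2 were also higher. edgeR and DESeq2 also called 5 lower and 0 higher, with their shares over all genes not given here. The median log2 fold change was -0.35. NLRP3, the sensor of the best known inflammasome, had 1021, 796 and 928 normalized counts in si-CTRL replicates 1 to 3 and 115, 100 and 126 in si-NEK2 replicates 1 to 3. The groups were far apart, 12.4% of the mean remained, and NLRP3 fell with a log2 fold change of -3.00 (SE 0.13, limma adjusted p = 4.08e-06).

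P2RX7, an ATP-gated channel that triggers NLRP3, fell with a log2 fold change of -1.46 (SE 0.23, limma adjusted p = 0.00127), which was -1.20 without si-CTRL replicate 1. CASP1, the protease that cleaves the precursors of IL1B and IL18, fell from 137.9 ± 5.05 to 77.5 ± 16.3 normalized counts (SD, n = 3), a log2 fold change of -0.85 (SE 0.18, limma adjusted p = 0.00598). NLRP1, a further inflammasome sensor, and CASP4, a caspase of the non-canonical inflammasome, had -0.66 and -0.64, and CASP4 was no longer regulated without si-CTRL replicate 1 (-0.47), nor NLRP1 with quantile normalization (-0.52). PYCARD, the adaptor that links NLRP3 to caspase-1, was listed at 0 in all 6 libraries, where a count of 0 allows up to 3 reads. The calpain genes CAPN2 and CAPNS1, which encode subunits of a protease that cleaves the IL1A precursor, were the most abundant of the list. They had log2 fold changes of -0.13 (limma adjusted p = 0.103) and 0.09 (adjusted p = 0.444). Without si-CTRL replicate 1 these were -0.11 (limma adjusted p = 0.0659) and 0.17 (adjusted p = 0.0200).

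Toll-like receptors also signal through MYD88, apart from TLR3. Of 6 tested, 1 was regulated (16.7%, beside 22.5% of all genes tested), so that the count is no result about these receptors. It was TLR3, with a log2 fold change of -0.61 (SE 0.09, limma adjusted p = 0.000825). None was regulated upward. At an adjusted p-value of at most 0.05 in limma 3 were lower and 0 higher, beside 21.3% and 21.8% of all genes tested. edgeR and DESeq2 called 1 lower and 0 higher, with their shares over all genes not given here. TLR6 had the most reads and a log2 fold change of -0.57 (limma adjusted p = 0.000759), just within the 1.5-fold limit. It passed that limit without si-CTRL replicate 2 (-0.64) or si-NEK2 replicate 2 (-0.61), and without the latter TLR3 no longer did (-0.58). The weakest value of TLR3 over all alternatives was -0.49, also within the limit. The entry shared by TLR9 and TWF2 had -0.34 (limma adjusted p = 0.00894), and its reads cannot be assigned to either gene. TLR2 was listed at 0 throughout.

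Genes that interleukin 1 is known to induce were lower in most cases. Of 22 tested genes, 18 were regulated downward and none upward, beside 14.3% and 8.23% of all genes tested. At an adjusted p-value of at most 0.05 in limma 20 were lower and 0 higher, beside 21.3% and 21.8% of all genes tested. edgeR and DESeq2 called 18 lower and 0 higher, with their shares over all genes not given here. The median log2 fold change was -1.67, against 0.01 over all genes. This list was written with earlier results of these libraries known and is not independent evidence. By fitted value, the lowest were the cytokine genes CSF3 and CSF2, which encode granulocyte and granulocyte-macrophage colony-stimulating factor, the matrix metalloproteinase gene MMP3 and the neutrophil chemokine gene CXCL1. CSF2 fell from 196.1 ± 34.6 to 24.9 ± 11.0 normalized counts (SD, n = 3), with a log2 fold change of -3.03 (SE 0.34, limma adjusted p = 0.000215), and MMP3 and CXCL1 fell with -2.81 and -2.79. CSF3 had 76, 18 and 120 reads in si-CTRL replicates 1 to 3 and 2, 0 and 2 in si-NEK2 replicates 1 to 3, and its fitted log2 fold change of -4.86 (SE 0.75) ran from -6.30 to -3.38 over the alternatives. Like IL33, CSF3 reached the minimum mean only through the si-CTRL libraries. Its calls, among the 18 and the 20 of limma and the 18 of edgeR and DESeq2, are therefore no support. The most abundant genes of the list, CXCL8 and LIF, fell with log2 fold changes of -2.46 (SE 0.10, limma adjusted p = 2.39e-06) and -1.58 (SE 0.09, limma adjusted p = 9.68e-06). The 4 tested genes that were not regulated were CCL2 (0.02), PTGS2 (-0.17), TNFAIP2 (-0.43) and NFKBIA (-0.43), named after their values were seen.

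**Figure D4:**
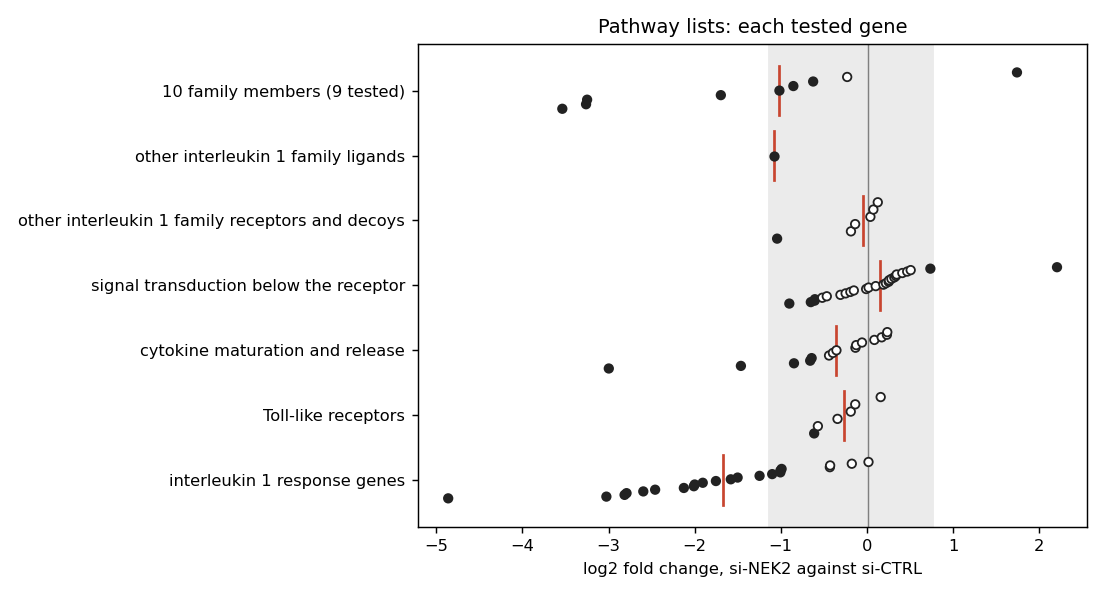
Log2 fold change of each tested gene in the 10 members and in 6 lists of the pathway, filled where regulated and open otherwise, with a red bar at the median of each list. Grey shading spans the 5th to the 95th percentile of all 18717 genes tested, from -1.14 to 0.77. Most interleukin 1 response genes and 5 of the 9 members, IL33 among them, lie outside it.

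IL1A, IL1B and IL37 lie close together, but IL18, MYD88 and IRAK2 had no other family gene among their tested neighbours. Neighbours of the members within 500 kb were described after the values of the members were seen. Their counts stand beside 14.3% of all genes tested regulated downward and 8.23% upward, and no difference between regions was tested. Around IL1B, 11 tested genes with a symbol were found, of which 4 were regulated downward and 1 upward, with a median log2 fold change of -0.33. Those lower were IL1A, 53.6 kb away between gene midpoints, IL37, CKAP2L (-1.38), which encodes a mitotic spindle protein, and SLC20A1 (-1.39), a phosphate transporter. PSD4 was higher (1.27), and the remaining 6 lay within a fold change of 1.5. Around IL18, 1 of 12 neighbours was regulated, BCO2, which rose from 32.7 to 67.8 normalized counts with a log2 fold change of 1.03 (SE 0.23, limma adjusted p = 0.00624). Around MYD88, 5 of 12 neighbours were lower, among them ACAA1, a gene of peroxisomal fatty acid oxidation 10.8 kb away between midpoints, with -0.67 (SE 0.09). Around IRAK2, 1 of 23 was lower and 1 higher, and around IRAK1, 5 of 30 were lower and 1 higher. Fewer neighbours were tested around IL33 (1 of 5 lower), IL1R1 (2 of 3 lower) and IL1RAP (2 of 2 lower), with none higher. The regions of IL1A and IL1RN overlap that of IL1B and share genes with it, with 5 of 12 and 6 of 12 lower and 1 higher in each. The lower genes counted include other members, chosen with their values known, namely IL1A around IL1B, IL1B around IL1A, and both around IL1RN. The counts of these regions are therefore no support.

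**Figure D5:**
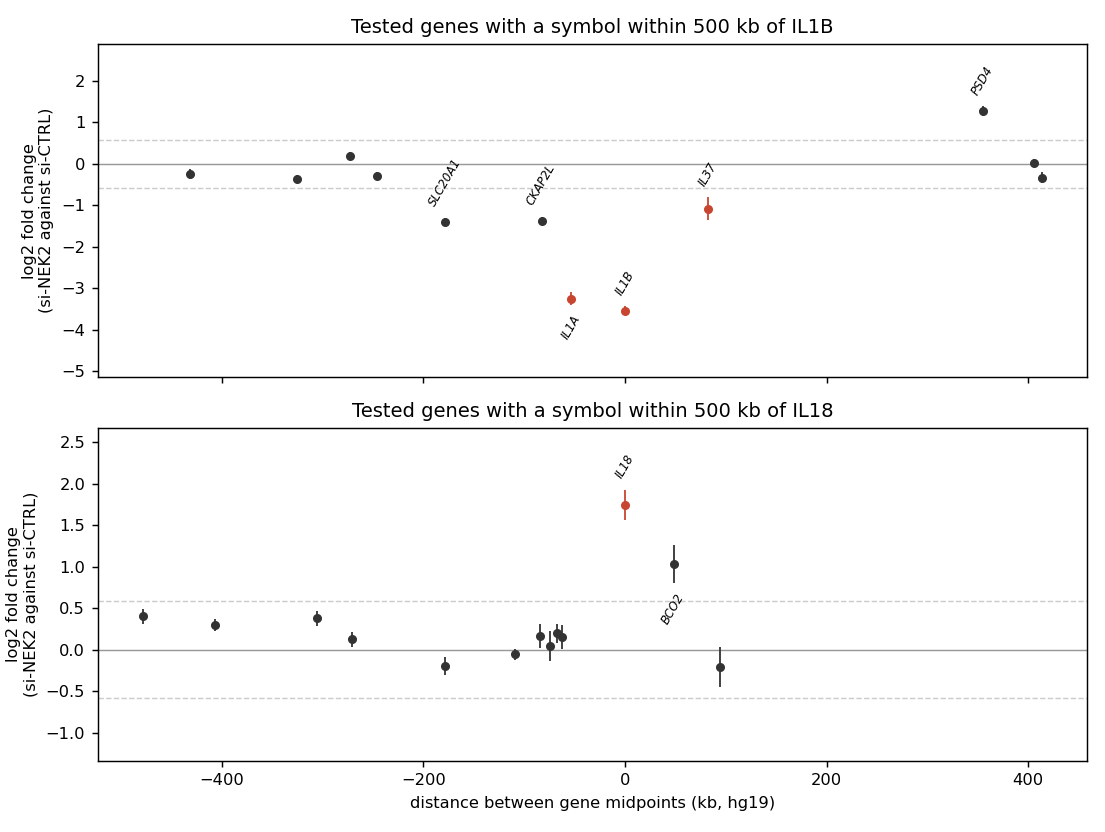
Log2 fold change with its standard error of tested genes with a symbol against the distance in kb between gene midpoints (hg19), around IL1B above and IL18 below, red for interleukin 1 family genes and black for others, with names for those outside the dashed lines at a fold change of 1.5. IL1A and IL1B lie at -3.25 and -3.54, below every other gene of their region, and IL18 lies above all its neighbours.

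The genes whose 6 values were most like those of IL1B, by the root mean square difference of log2 deviations from the si-CTRL mean over 6 libraries, were NEK2 itself (0.184), KRTAP1-5 (0.192), a keratin-associated protein gene, and ESM1 (0.216), which encodes an endothelial proteoglycan. They were found among 12093 genes with a single symbol and a mean of at least 50 normalized counts. Those most like IL18 were HSPA2 (0.116), a testis-enriched heat shock protein gene, BSN (0.122), which encodes a presynaptic scaffold, and MTUS1 (0.129), which encodes a microtubule-binding protein. As all points share the same 2 groups, this measure of likeness includes the size of the difference between groups.

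Markers of immune cells, which produce much of the interleukin 1 in tissues, were checked beside these results. The summed normalized counts of 9 markers were between 162.7 and 226.2 in si-CTRL and between 85.4 and 104.7 in si-NEK2 libraries. Only 3 of the 9 reached the mean needed for testing. Of these, CSF1R (-2.19) and ITGAM (-0.71) were lower, the latter with -0.48 without si-CTRL replicate 1, and the pan-leukocyte gene PTPRC had 7.25 ± 5.69 and 12.9 ± 11.1 normalized counts (SD, n = 3). The B cell marker MS4A1 was listed at 0 throughout, and CD14, CD3E, CD3D, LYZ and CD163 did not reach a mean of 10. Of 10 interferon-stimulated genes, all tested, 3 were regulated downward (MX1, MX2 and IFI44L) and none upward, beside 14.3% and 8.23% of all genes tested. At an adjusted p-value of at most 0.05 in limma 5 were lower and 1 higher, beside 21.3% and 21.8% of all genes tested. edgeR and DESeq2 called 3 lower and 0 higher, with their shares over all genes not given here. Summed over these 10 genes, normalized counts lay between 45200 and 58053 in si-CTRL and between 44913 and 47178 in si-NEK2 libraries. The part of either list in the results of the interleukin 1 family was not tested.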

How the data were processed

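PolyA RNA from MDA-MB-231 cells was sequenced in 3 si-CTRL and 3 si-NEK2 libraries. The authors deposited a signal per gene and library, a normalized count made from reads with DESeq2 size factors, with FAST DB annotation and hg19 coordinates and without pooling. The submitters' processing notes name STAR 2.4.0, SAMtools, Picard, FastQC and DESeq2. The kit keeps strand, but whether counting used it is not given in the sources used here, so that overlapping genes may share reads. Of the deposited signal values, 100% were whole multiples of 1 read within 0.01, which gave back the reads.

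Groups were taken from the sample titles. The 18717 genes averaging 10 or more normalized counts were tested with limma 3.58.1 (R 4.3.3, lmFit and eBayes with an intensity trend) on log2(value + 1), and p-values were adjusted over all of them by Benjamini and Hochberg. edgeR 4.0.16 and DESeq2 1.42.0 were run on the recovered reads, and all 3 were tested on simulated data. Members, gene lists, tests and the rule for named genes were chosen with earlier results of these data known. That rule names all members, and of each list the 4 largest changes past both thresholds and the 2 highest means, and for the members with the largest decrease and increase the 3 most similar genes. MAPK14, CASP4, neighbours, markers and genes named outside the rule were added after their values were seen. OAS1 and OAS2 of the interferon list were not analysed here. One immune cell marker is not reported here, and its list was summed without it. Replicate libraries differed by more than counting error (chi-square per gene from 9.28 to 81.4, where counting error alone gives about 1), and the interval for IL33 covers counting error only.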

Additional observations from a re-analysis of the deposited data

How the results depend on the processing

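Of the log2 fold changes of the 9 tested members, 150 of 152 values under 17 alternatives kept their direction and their side of the thresholds, and the other 2 are those of IL1R1 given above. The number of regulated members was 8. Leaving out each library in turn gave 7 to 8, the lower number without si-NEK2 replicate 3. It was 7 with quantile normalization, 7 over genes averaging 50 or more, where IL33 was not tested, and 6 with a fold change of at least 2. With the replicate number as a block, 8 members were again regulated and no count of the lists changed. Libraries with the same number did not deviate together (correlations of -0.09, 0.05 and -0.15 across genes), so that the numbers are not taken as pairs. Of the lists, the ligands gave 0 regulated genes in place of 1 over genes averaging 50 or more, where IL37 was not tested. With a fold change of at least 2, the cascade gave 1 in place of 6, maturation and release 2 in place of 5, and Toll-like receptors 0 in place of 1. Toll-like receptors gave 3 without a filter, where more genes were tested, 0 with upper quartile scaling, 2 with equal total scaling, and 1 to 2 with each library left out (2 without si-CTRL replicate 2). Over all 34 named genes, 555 of 575 values kept direction and side. The sign changed for SIGIRR with equal total scaling (-0.00110), without replicate 1 of si-CTRL (-0.0342) or of si-NEK2 (-0.0525), within a leave-one-out range of -0.0525 to 0.30, and for CAPNS1 with equal total scaling (-0.0412) and quantile normalization (-0.0434). The median of all genes was -0.11 under equal total scaling. The cause of these changes was not tested. For IL33 and IL1RN the depth is the limit.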
